A study of Mus musculus with 6 samples.

Results

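The 9 genes described here are the Snail, Twist and Zeb transcription factors of the epithelial-mesenchymal transition (Snai1, Snai2, Twist1, Twist2, Zeb1 and Zeb2), the cadherins Cdh2 and Cdh11, and the intermediate filament gene Vim. They were chosen by symbol, as textbook genes of that transition, from the 24975 genes of the count table, and all 9 were expressed enough to be tested. Their transcripts were measured by RNA sequencing of sorted mouse mesoderm at embryonic day 7.5. Gli3R embryos were Mesp1-Cre/+;R26-Gli3R-IRES-Venus/+: Cre from the Mesp1 gene, which is active in nascent mesoderm, switched on Gli3R, a dominant repressor version of Gli3, a transcription factor of the Hedgehog pathway, together with the fluorescent protein Venus, from the R26 locus. Control embryos were Mesp1-Cre/+;R26-tdTomato/+, so that both groups carried Mesp1-Cre and the control cells made tdTomato in place of Gli3R and Venus. Each group had 3 libraries of 1000 sorted cells, and each of the 3 litters gave 1 library to either group, with littermate embryos pooled before sorting. The file headers give Venus as the sorting reporter of the Gli3R libraries and tdTomato as that of the control libraries, so an effect of Gli3R and an effect of the reporter or its gate cannot be told apart.

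During gastrulation, cells of the epiblast, an epithelium, leave it through the primitive streak as mesenchyme. Snail and Zeb proteins bind E-box sequences and repress epithelial genes such as Cdh1, which encodes E-cadherin, and Twist proteins are basic helix-loop-helix factors that pair with E proteins. In the mouse, Snai1 is needed for mesoderm cells to lose their epithelial character, and cells that complete the transition replace E-cadherin with N-cadherin, the product of Cdh2, and make vimentin.

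The E-box CACCTG is the sequence through which Snail and Zeb factors are known to act, and the promoter of Snai1 is shown because it holds that sequence and because Snai1 is the only one of the 9 whose 2 groups of libraries did not overlap. The 250 bases before its start, from RefSeq on GRCm38.p6, plus strand, chr2:167537945-167538194, are given with the E-box in capitals; its first base lies 126 bases before the start.
Snai1 promoter: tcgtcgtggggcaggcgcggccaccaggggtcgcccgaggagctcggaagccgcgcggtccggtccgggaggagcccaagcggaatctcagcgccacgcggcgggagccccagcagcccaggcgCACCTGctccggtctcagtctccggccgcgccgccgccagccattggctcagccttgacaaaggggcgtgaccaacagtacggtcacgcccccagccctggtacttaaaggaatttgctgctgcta
Searched on both strands as CACCTG or CAGGTG, the E-box was present in 17.2% of 32851 promoter windows of the same length. The promoter table matched 5 of the 9 genes (Snai1, Twist1, Twist2, Zeb2 and Vim) with 8 starts, and 1 of these 8 windows, that of Snai1, held the E-box. Several of the 8 windows belong to Zeb2 and in part overlap, so the 8 are not independent. By gene, the E-box was in 1 of the 5. The GLI motif GACCACCCA (or TGGGTGGTC) was in 0 of the 8 windows and in 0.225% of all windows. Its shorter core CCACCCA (or TGGGTGG), which lies within the longer motif, was in 0 of the 8 and in 8.11% of all windows. The E-box shares no stretch with either GLI motif in the Snai1 window, since neither is present there. Snai2, Zeb1, Cdh2 and Cdh11 were not matched.

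The libraries held 6592417 to 12635151 counts in the Gli3R group and 5481190 to 10435790 in the control group. Control replicate 1 had the fewest counts and stood apart on the first principal component, which took 35.0% of the variance (39.9, against -19.3 to 2.25 for the other libraries). Values without it are given beside several of the genes for which it was the highest or the lowest library. The mesoderm label was checked against 14 lineage markers, all of which were expressed enough to be tested; their summed level was 324 to 383 counts scaled to library size (CPM) in Gli3R libraries and 355 to 377 CPM in control libraries. Hand1 alone held 142 to 207 CPM of these sums in Gli3R and 118 to 151 CPM in control libraries. The sums hide opposite directions: 11 of the 14, Snai1 among them, were below 0 and 3 above, with a median log2 fold change of -0.494 against -0.00787 for all tested genes. At an unadjusted p under 0.05, 5 were lower and 2 higher, against 6.85% of all tested genes in either direction. The groups of 4 did not overlap, all lower and Snai1 among them, against 6.33% of all tested genes. None of the 14 passed over all genes (edgeR with the low-count filter, Benjamini-Hochberg), and 1, T, was lower with litter as a block. The part of these shifts in the values of the 9 genes was not tested. Gli3, part of which the transgene carries, stood at 43.6, 39.0 and 50.9 CPM in Gli3R replicates 1, 2 and 3 and at 25.8, 29.5 and 34.4 CPM in control replicates 1, 2 and 3 (edgeR, Benjamini-Hochberg adjusted p = 0.312). These reads could come from the transgene or from endogenous Gli3.

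The mesenchymal genes were detected in every library of both groups, from 28 reads for Twist2 and Zeb1 in control replicate 1 to 3118 reads for Vim in Gli3R replicate 1. Scaled to the length of the longest protein-coding transcript, Vim was the most abundant, at 115 ± 17.8 CPM per kb over all 6 libraries (SD), and its lowest library (86.0 CPM per kb) lay above the highest library of Snai2. Snai2 followed at 23.6 ± 8.43 CPM per kb, then Cdh11 at 10.7 ± 1.94, Twist1 at 8.61 ± 1.89, Cdh2 at 6.24 ± 0.95 and Snai1 at 5.10 ± 1.16 CPM per kb. From Snai2 to Twist2 the range of each gene over the libraries overlapped that of its neighbour in this order. Compared within each library, Snai2 lay above Cdh11 and Snai1 above Twist2 in all 6. The order of neighbours from Cdh11 to Snai1 changed between libraries. Every library of Twist2 (2.64 ± 0.528 CPM per kb) lay above every library of Zeb2. The Zeb genes were the least abundant per length, Zeb2 at 1.49 ± 0.31 and Zeb1 at 1.04 ± 0.15 CPM per kb. Their ranges overlapped, but Zeb2 was above Zeb1 within each of the 6 libraries. Snai2 was thus the most abundant of the 6 transcription factor genes per transcript length in both groups, at a mean of 29.3 CPM per kb in Gli3R and 17.8 CPM per kb in control libraries. The use of shorter isoforms was not taken into account in these lengths.

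**Figure D1:**
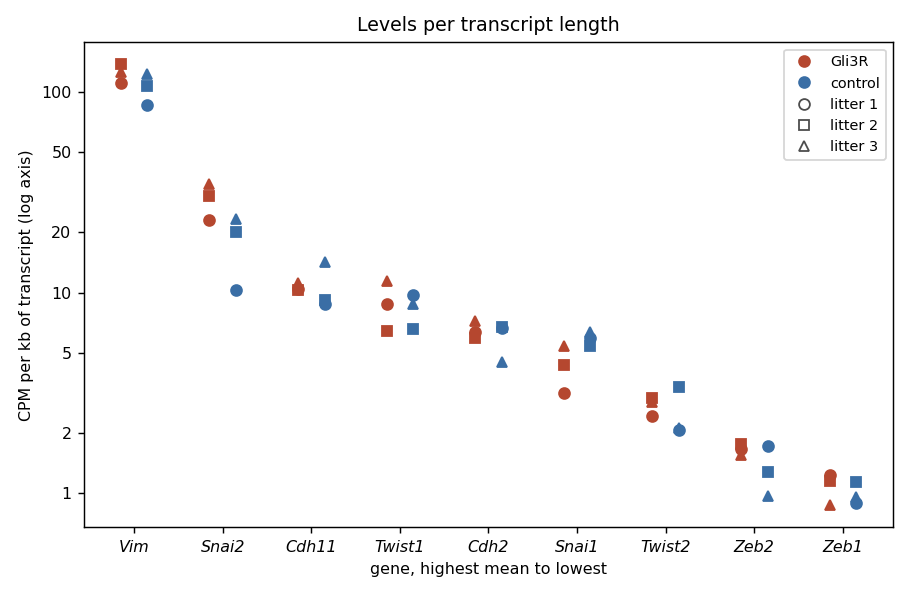
Level of each of the 9 genes in CPM per kb of transcript (log axis), ordered by the mean over all 6 libraries, with Gli3R libraries in red left of the control libraries in blue and the marker giving the litter. Vim lies above the others in every library, Snai2 leads the transcription factors, and the Zeb genes lie lowest.

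Between Gli3R and control, 0 of the 9 genes passed the test over all genes, against 16 of 11913 tested genes, or 0.134% (edgeR quasi-likelihood F test, Benjamini-Hochberg adjusted p under 0.05). With so few calls in the whole table, 0 of 9 is near the background and is no result about these genes. Without control replicate 1, 0 of the 9 passed, against 0.149% of the genes tested there. At an unadjusted p under 0.05, 1 of the 9 passed, Snai2, against 6.85% of all tested genes. The log2 fold change was above 0 for 7 genes and below 0 for Snai1 and Cdh11, with a median of 0.117 against -0.00787 for all tested genes. The size of the change, without its sign, had a median of 0.124 on the log2 scale, against 0.118 for all tested genes.

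**Figure D2:**
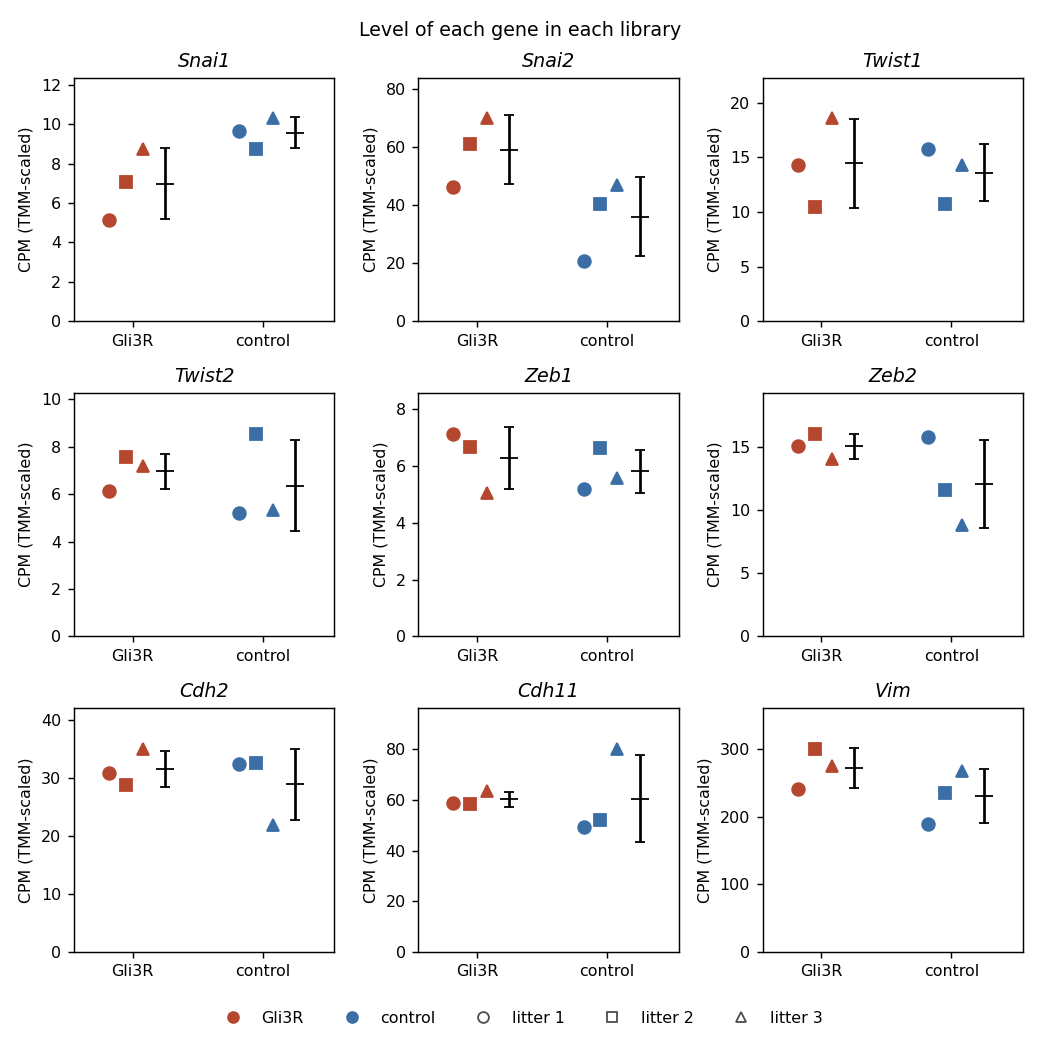
CPM (TMM-scaled) of each gene in each library, Gli3R in red and control in blue, with the marker giving the litter and the black bars the mean and SD of 3 libraries. Snai2 is higher on average in Gli3R libraries and Snai1 lower, while the other genes overlap widely between the groups.

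With all 6 libraries, the Snail genes gave the largest differences of the 9, in opposite directions; without control replicate 1, Zeb2 (0.56 on the log2 scale) exceeded both. Snai2 (Entrez gene 20583), which encodes the zinc finger repressor Slug, stood at 46.4, 61.1 and 70.0 CPM in Gli3R replicates 1, 2 and 3 and at 20.8, 40.5 and 46.9 CPM in control replicates 1, 2 and 3. Its lowest Gli3R library lay just under its highest control library, and control replicate 1 was the lowest of the 6. Within each litter the Gli3R library was the higher, by 1.14, 0.588 and 0.571 in log2(CPM + 0.5) in litters 1, 2 and 3. The log2 fold change was 0.69 ± 0.26 (SE; 1.61-fold, 95% interval 1.08 to 2.41) and did not pass over all genes (edgeR, Benjamini-Hochberg adjusted p = 0.617). It was 0.43 without control replicate 1 and 0.59 without litter 1, with adjusted p of 0.568 and 0.127 in the same test. With litter as a block it was 0.76 ± 0.14 at an adjusted p of 0.0984, the lowest of the 9 genes, and again did not pass.

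Snai1 (20613), which encodes the Snail repressor, stood at 5.13, 7.05 and 8.75 CPM in Gli3R replicates 1, 2 and 3 and at 9.65, 8.75 and 10.3 CPM in control replicates 1, 2 and 3. The groups did not overlap, but the highest Gli3R and the lowest control library were equal at the precision printed. Counting error alone was wider than that gap: Gli3R replicate 3 had 57 reads (95% Poisson interval 6.63 to 11.3 CPM) and control replicate 2 had 91 reads (7.04 to 10.7 CPM). Each Gli3R library was lower than the control library of its litter, with differences of -0.851, -0.294 and -0.221 in log2(CPM + 0.5). The log2 fold change of -0.48 ± 0.23 (0.719-fold, 95% interval 0.503 to 1.03) did not pass (edgeR, Benjamini-Hochberg adjusted p = 0.763), and it was -0.47 without control replicate 1. Of the 9 genes, Snai1 was the only one whose groups did not overlap (lower, as in 6.33% of all tested genes, or 12.0% in either direction), and 3 of the 9 had the same direction in all 3 litters (Snai1, Snai2 and Vim), against 30.3% of all tested genes. Both shares are near the background.

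Since the 2 Snail genes lay in opposite directions, the number of Snai2 reads per Snai1 read was taken in each library, where scaling to library size cancels. This ratio was chosen after the values were seen and is given without a test. It was 9.0, 8.60 and 7.94 in Gli3R replicates 1, 2 and 3 and 2.14, 4.61 and 4.55 in control replicates 1, 2 and 3. The Gli3R libraries lay close together and above every control library, with a geometric mean of 8.50 in Gli3R against 3.55 in control libraries, and control replicate 1 was the lowest. The difference in log2 ratio was 1.26, and 0.894 without control replicate 1. Snai3, the remaining Snail gene, was nearly absent, with 7 reads in Gli3R and 1 read in control libraries.

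**Figure D3:**
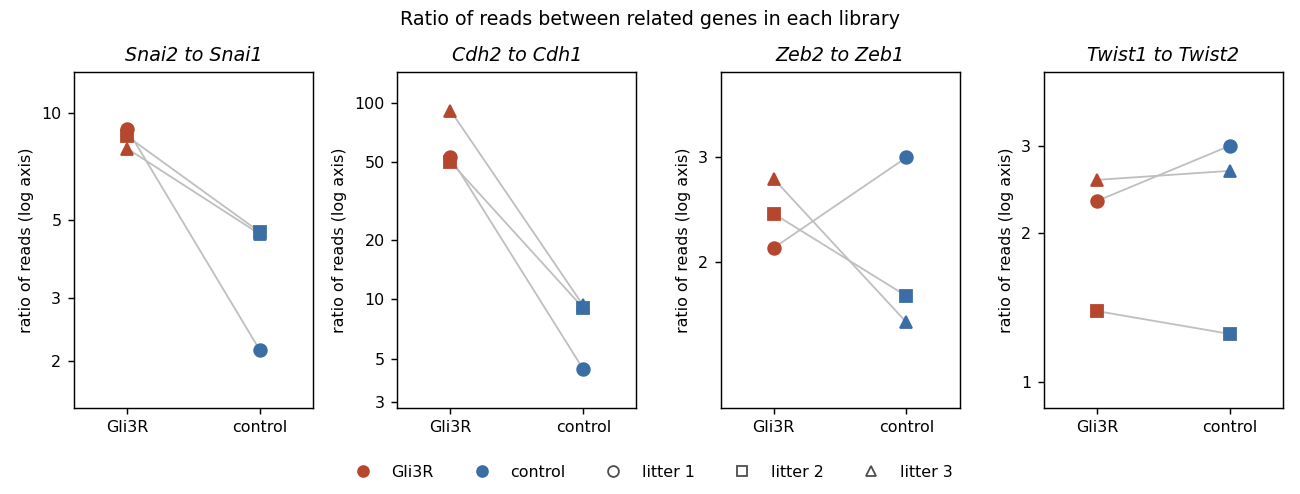
Reads of 1 gene per read of a related gene in each library (0.5 reads added to each, log axis), Gli3R left and control right, with lines joining libraries of a litter. The ratio of Snai2 to Snai1 and that of Cdh2 to Cdh1 do not overlap between the groups, while those of Zeb2 to Zeb1 and Twist1 to Twist2 do.

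The Twist genes, which encode basic helix-loop-helix factors of mesenchyme, differed by less than the spread over libraries. Twist1 (22160) stood at 14.3, 10.5 and 18.6 CPM in Gli3R replicates 1, 2 and 3 and at 15.8, 10.7 and 14.3 CPM in control replicates 1, 2 and 3. Litter 2 was lowest in both groups. A log2 fold change of 0.10 ± 0.23 was fitted, with a 95% interval of the fold from 0.746 to 1.53. Twist2 (13345) stood at 6.13, 7.56 and 7.21 CPM in Gli3R libraries and at 5.20, 8.56 and 5.33 CPM in control libraries, and the groups overlapped. Its log2 fold change was 0.10 ± 0.25, and the interval of the fold ran from 0.726 to 1.58. Neither interval leaves out a change of 1.5-fold upward or a fall to 0.75. Twist1 reads per Twist2 read were 2.32, 1.39 and 2.56 in Gli3R libraries and 3.00, 1.25 and 2.67 in control libraries, lowest in litter 2 in both groups. The transcripts of the Twist genes shared no stretch of 50 bases with each other, but 45.7% of the 50-base stretches of Twist2 lay opposite the antisense gene Gm29100, which was not analysed here. Without strand, reads of that part cannot be assigned with certainty.

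Zeb2 (24136), a zinc finger and homeodomain repressor, stood at 15.1, 16.1 and 14.1 CPM in Gli3R replicates 1, 2 and 3 and at 15.8, 11.6 and 8.88 CPM in control replicates 1, 2 and 3. The Gli3R libraries were close together and above control replicates 2 and 3, while control replicate 1 was as high as they were. The log2 fold change was 0.34 ± 0.21 (95% interval of the fold 0.918 to 1.75; edgeR, Benjamini-Hochberg adjusted p = 0.902), and 0.56 without control replicate 1 (adjusted p = 0.472). The antisense gene Zeb2os lies opposite 3.02% of the 50-base stretches of Zeb2, and it had 32 reads in Gli3R and 27 in control libraries, against 413 and 276 for Zeb2. Zeb1 (21417), its paralogue, stood at 7.14, 6.66 and 5.06 CPM in Gli3R libraries and at 5.20, 6.64 and 5.58 CPM in control libraries. These overlapped, and the log2 fold change of 0.12 ± 0.23 had an interval of the fold from 0.765 to 1.54. Zeb2 reads per Zeb1 read overlapped between the groups, at 2.11 to 2.76 in Gli3R and 1.58 to 3.00 in control libraries.

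Among the cadherins, Cdh2 (12558), which encodes N-cadherin, stood at 30.8, 28.8 and 35.0 CPM in Gli3R replicates 1, 2 and 3 and at 32.3, 32.6 and 21.8 CPM in control replicates 1, 2 and 3. Control replicate 3 was the low library, and the other 5 lay within a narrow range. Its fitted log2 fold change was 0.12 ± 0.17 (95% interval of the fold 0.838 to 1.42). Cdh11 (12552), a cadherin of mesenchyme and bone-forming cells, stood at 58.8, 58.2 and 63.5 CPM in Gli3R libraries and at 49.4, 52.0 and 80.2 CPM in control libraries. The same control replicate 3 was the highest for Cdh11, and the means of the groups were almost equal, at 60.2 ± 2.92 and 60.5 ± 17.1 CPM (SD, n = 3 each). On the log2 scale the fold change was -0.01 ± 0.17 (interval of the fold 0.759 to 1.29), and 0.24 without control replicate 3. Of the 50-base stretches of Cdh11, 3.23% also occurred in transcripts of 8 other genes.

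Vim (22352), the vimentin gene, stood at 242, 301 and 276 CPM in Gli3R replicates 1, 2 and 3 and at 189, 235 and 268 CPM in control replicates 1, 2 and 3. Each Gli3R library was above the control library of its litter, by 0.359, 0.357 and 0.041 in log2(CPM + 0.5), although the groups overlapped. Vim had a log2 fold change of 0.24 ± 0.13 (1.18-fold, 95% interval 0.964 to 1.45; edgeR, Benjamini-Hochberg adjusted p = 0.850), and 0.12 without control replicate 1. With litter as a block, its interval on the log2 scale ran from 0.04 to 0.46, but the adjusted p of 0.451 did not pass. Snai2 and Vim were the only 2 of the 9 genes at an unadjusted p under 0.05 in that fit, against 8.73% of all tested genes, and 0 of the 9 passed adjusted, against 0.227% of all tested genes.

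**Figure D4:**
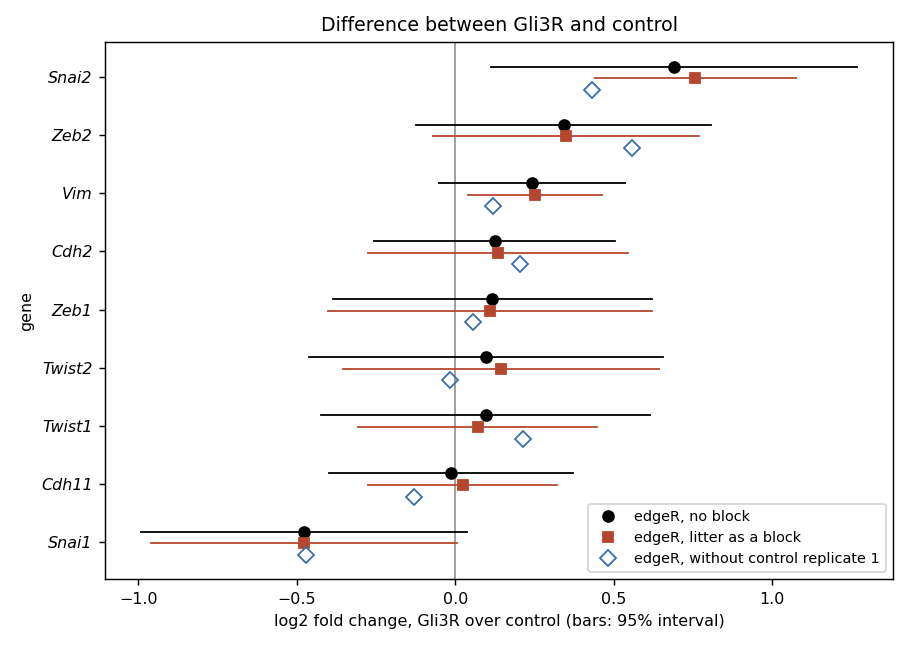
Log2 fold change, Gli3R over control, of each gene in the edgeR fit without a block (black, with 95% interval), with litter as a block (red, with 95% interval) and without control replicate 1 (open blue diamonds). The intervals of all genes but Snai2 include 0 in the fit without a block, and those of all but Snai2 and Vim do so with the block.

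**Figure D5:**
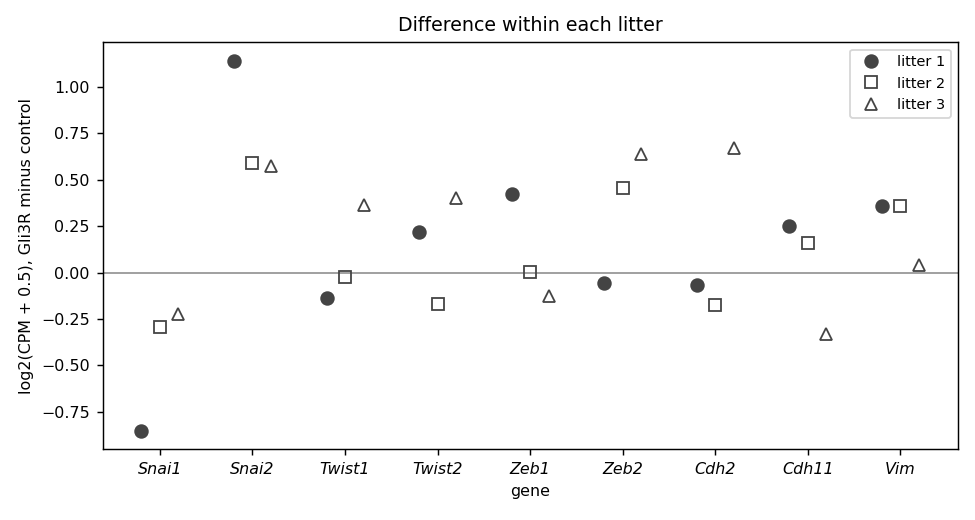
Difference in log2(CPM + 0.5) between the Gli3R and the control library of each litter. Snai1 lies below 0 and Snai2 and Vim above 0 in all 3 litters; the other 6 genes have both signs.

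The counterpart of Cdh2 in the cadherin switch, Cdh1, was sparse in these cells. Cdh1 had 0.544, 0.513 and 0.307 CPM in Gli3R replicates 1, 2 and 3 and 7.24, 3.56 and 2.28 CPM in control replicates 1, 2 and 3, or 13 reads in all in Gli3R libraries against 94 in control libraries. The log2 fold change was -3.11 ± 0.53 and did not pass without the litter block (edgeR, Benjamini-Hochberg adjusted p = 0.0869), but did with it (0.0327). It also passed without the block where the low-count filter was left out (0.0013 in the same test). It was -2.61 without control replicate 1 (adjusted p = 0.0947 in the same test, without the block). Cdh2 reads per Cdh1 read were 52.9, 50.1 and 91.4 in Gli3R libraries and 4.42, 9.05 and 9.32 in control libraries. The Gli3R libraries lay above every control library, and control replicate 1 was the lowest. Scaled to transcript length, Cdh1 lay at 0.0693 to 0.123 CPM per kb in Gli3R and 0.515 to 1.63 CPM per kb in control libraries, below Cdh2 (5.95 to 7.22 and 4.50 to 6.73 CPM per kb) in every library. The difference in log2 ratio was 3.11 (5.96 ± 0.48 in Gli3R and 2.85 ± 0.61 in control libraries; SD, n = 3 each), or 2.76 without control replicate 1. With all 6 libraries the exact permutation p was 0.10, two-sided, the smallest that 3 libraries against 3 allow. With a log2 fold change of 0.12 for Cdh2 and -3.11 for Cdh1, most of this difference lies in the reads of Cdh1. In bulk libraries, fewer cells with a transcript and less of it per cell cannot be told apart.

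Markers of the epiblast were highest in the same control library. The summed level of 14 epiblast and neural ectoderm markers was 134 to 151 CPM in Gli3R and 142 to 243 CPM in control libraries. It was highest in control replicate 1, and Sox1 had no reads. Dnmt3b made up most of this sum, with a log2 fold change of -0.143, and 0.02 without control replicate 1. Of the 7 markers tested, 6 were below 0 and 1 above. Their median log2 fold change was -0.627, against -0.00787 for all tested genes. At an unadjusted p under 0.05 (edgeR), 3 were lower and 0 higher, against 6.85% of all tested genes in either direction. The groups of 3 did not overlap, all lower, against 6.33% of all tested genes. Pou5f1, the pluripotency factor gene, stood at 12.7, 13.1 and 10.9 CPM in Gli3R replicates 1, 2 and 3 and at 42.5, 20.7 and 17.4 CPM in control replicates 1, 2 and 3. Epcam, an epithelial adhesion gene, was at 8.54, 10.3 and 7.98 CPM in Gli3R and 28.9, 18.3 and 11.8 CPM in control libraries. Neither passed over all genes (Benjamini-Hochberg adjusted p in edgeR = 0.354 and 0.318). The log2 fold change of Pou5f1 was -1.10, and -0.63 without control replicate 1. That of Epcam was -1.12, and -0.76 without it. Nanog, another of the 7 tested markers, stood at 9.01, 9.23 and 22.6 CPM in Gli3R and 36.7, 8.95 and 12.2 CPM in control libraries. Its log2 fold change was -0.49, and 0.34 without control replicate 1. Nanog and Dnmt3b thus changed sign without that library and Pou5f1 did not. The median of the 7 without it was not taken. Control replicate 1, highest for Pou5f1, Epcam and Cdh1, was also the lowest library for 4 of the 9 genes, Snai2, Twist2, Cdh11 and Vim. The share of all tested genes lowest in that library was not taken, so this count is no result about the 9 genes. The part of the epiblast markers in the values of the 9 genes was not tested.

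Of the other genes of the transition, 0 passed in the fit used above, without the litter block and with the low-count filter. Without that filter, 108 of 18719 genes were called. Among them Cdh1, T, Cldn6, Epcam and Fgf8 were lower and Krt19 and Col1a1 higher (edgeR, Benjamini-Hochberg adjusted p from 0.0013 to 0.029). With the filter, 15 of 34 epithelial genes were tested and 0 passed without the block. With the litter block Cdh1 fell and 0 rose, and the median log2 fold change without the block was 0.0627. The epithelial list did not go 1 way: Cldn6, a claudin gene, stood at 0.544, 2.05 and 0.153 CPM in Gli3R and 15.4, 11.3 and 0.634 CPM in control libraries (log2 fold change -3.29 ± 0.96), whereas the keratin gene Krt19 stood at 21.2, 29.0 and 35.6 CPM in Gli3R and 15.6, 11.1 and 19.3 CPM in control libraries (0.90 ± 0.24). Of 27 other cadherins and catenins, 7 were tested and 0 passed, with Cdh1 the only one to fall with the block. Of the 7, 4 were above 0 and 3 below. The catenin genes Ctnna1, Ctnnd1 and Jup stood at 0.15 ± 0.12, 0.12 ± 0.13 and 0.40 ± 0.26 on the log2 scale. The catenin gene Ctnnb1 lay at -0.07 ± 0.10. Of 48 partners and regulators of the transition, 45 were tested and 0 passed (median -0.026), and T, the Brachyury gene, fell with the block (edgeR, Benjamini-Hochberg adjusted p = 0.0373). In CPM, T was at 8.08, 5.13 and 3.53 in Gli3R and 43.6, 16.4 and 7.99 in control libraries, highest in control replicate 1. Its log2 fold change without the block was -1.93 (adjusted p = 0.402 in edgeR), and -1.08 without control replicate 1 (0.469) and -1.49 without litter 1 (0.173), neither of which passed.

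Among those regulators, Fgf8, a streak ligand gene, stood at 3.88, 2.95 and 2.30 CPM in Gli3R and 8.35, 8.85 and 6.09 CPM in control libraries. The TGF-beta signal transducer gene Smad3 was at 9.09, 7.82 and 8.90 CPM in Gli3R and 12.1, 14.5 and 15.9 CPM in control libraries. Prrx1, a homeobox gene of lateral plate mesenchyme, was at 8.93, 6.79 and 7.98 CPM in Gli3R and 2.97, 5.29 and 2.92 CPM in control libraries. The groups of these 3 genes did not overlap, and none passed (edgeR, Benjamini-Hochberg adjusted p = 0.171, 0.252 and 0.332). They were named for having the smallest p of their list, which favours groups that do not overlap. In that list of 45 tested genes, the groups did not overlap for 5 higher and 9 lower genes, against 12.0% of all tested genes in either direction. The T-box gene Eomes, which acts upstream of mesoderm formation, had 39 reads in Gli3R and 40 in control libraries, and Mesp1 stood at 9.01, 11.1 and 14.3 CPM in Gli3R and 25.2, 16.0 and 8.12 CPM in control libraries (log2 fold change -0.51, and -0.10 without control replicate 1).

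Mesenchymal effectors, the matrix and cytoskeletal genes that follow the transition, had a median log2 fold change of 0.34 over 24 tested of 33, against -0.00787 for all tested genes. Of the 24, 18 were above 0 and 6 below, and 0 passed with or without the litter block or without control replicate 1. Col1a1, a fibrillar collagen gene, stood at 8.93, 13.6 and 9.67 CPM in Gli3R and 5.01, 2.60 and 5.71 CPM in control libraries (1.30 ± 0.31). The smooth muscle gene Tagln stood at 68.6, 114 and 115 CPM in Gli3R and 40.3, 45.1 and 70.8 CPM in control libraries (0.92 ± 0.24). Vcan, which encodes the proteoglycan versican, lay the other way, at 16.3, 16.0 and 20.3 CPM in Gli3R and 24.1, 28.8 and 30.2 CPM in control libraries (-0.67 ± 0.15). The adjusted p of these 3 was 0.245, 0.318 and 0.197 by edgeR with Benjamini-Hochberg adjustment. Fn1, the fibronectin gene, was abundant in both groups, at 271 ± 15.9 CPM in Gli3R and 241 ± 27.6 CPM in control libraries (SD, n = 3 each; 0.17 ± 0.10).

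Besides Vim, 16 intermediate filament genes were listed, 12 were tested and 0 passed (median 0.0532). Lmna, the lamin A gene, stood at 6.06, 7.43 and 7.83 CPM in Gli3R and 3.34, 3.94 and 3.93 CPM in control libraries. The keratin gene Krt18 was at 544, 860 and 897 CPM in Gli3R and 391, 646 and 821 CPM in control libraries. Like Vim, Krt18 was lowest in control replicate 1, and its log2 fold change was 0.31, or 0.07 without that library.

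Markers of other lineages also varied between libraries, and their lists leaned in different directions. Of 13 blood and endothelial markers tested, 11 were above 0 and 2 below (median log2 fold change 0.238). Of 8 endoderm markers tested, 6 were above 0 and 2 below (0.312). Of 4 extraembryonic ectoderm markers tested, 1 was above 0 and 3 below (-0.456). The median of all tested genes was -0.00787. The epiblast, endoderm, extraembryonic ectoderm, and blood and endothelial lists had 0 genes that passed, with or without the block. That holds for all 6 libraries with TMM scaling and the low-count filter. Tal1 passed with scaling to library size alone (edgeR, Benjamini-Hochberg adjusted p = 0.047). Without the low-count filter Tal1, Etv2 and Pou5f1 were among those that passed (0.0021, 0.020 and 0.022 in the same test). The summed level of blood and endothelial markers was 845, 394 and 390 CPM in Gli3R replicates 1, 2 and 3 and 468, 577 and 321 CPM in control replicates 1, 2 and 3, and Tal1, a blood and endothelial factor gene, stood at 30.4, 29.6 and 32.5 CPM in Gli3R and 17.1, 17.6 and 12.8 CPM in control libraries (edgeR, Benjamini-Hochberg adjusted p = 0.0506). Endoderm markers summed to 155 to 211 CPM in Gli3R and 123 to 191 CPM in control libraries, and extraembryonic ectoderm markers to 155 to 223 and 148 to 171 CPM, with no reads of the defining trophoblast genes Elf5 and Tpbpa. Hand1, which mesoderm also expresses, made up most of that last sum (142 to 207 CPM in Gli3R and 118 to 151 CPM in control libraries). At an unadjusted p under 0.05 (edgeR), 3 blood and endothelial markers were higher and 0 lower. Of the extraembryonic ectoderm markers 1 was higher and 2 were lower, and of the endoderm markers 0 were either. The background was 6.85% of all tested genes in either direction. The part of these lineages in the values of the 9 genes was not tested.

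Each of the 9 genes was set against the 5727 tested genes with a mean of at least 20 CPM, by the root mean square difference between their mean-centred log2(CPM + 0.5) profiles over the 6 libraries. For Snai2 the nearest were Nrp1, a receptor gene for semaphorins and VEGF (0.0873), and Arhgap29 (0.12), against 0.551 for the variation of Snai2 itself. Nrp1 stood at 79.6, 101 and 110 CPM in Gli3R replicates 1, 2 and 3 and at 32.8, 57.6 and 70.6 CPM in control replicates 1, 2 and 3. Its groups did not overlap, whereas for Snai2 Gli3R replicate 1 lay just under control replicate 3. For Snai1 they were Mid1ip1 (0.0877) and the Notch target Hes1 (0.138), for Vim Ralb (0.0384) and the BMP and activin pseudoreceptor gene Bambi (0.0387), and for Cdh11 Prkci (0.0497) and Tvp23b (0.0558). Twist1 lay nearest Pabpn1 and Ube2m, Twist2 nearest Bend4 and Gtf2h4, Zeb1 nearest Mapkap1 and Nsf, Zeb2 nearest Smim14 and Zdbf2, and Cdh2 nearest the histone genes Hist1h2ac and Hist1h2ag, whose near-identical copies make their counts uncertain. Among the 9 themselves, Vim and Cdh11 were each other's nearest (0.196), as were Cdh2 and Zeb2 (0.211) and Twist2 and Zeb1 (0.234). Snai1 and Snai2 lay no nearer than 0.35 to any of the other 8, Snai1 to Cdh11 and Snai2 to Vim (0.356). With so many candidates and 6 libraries, some gene lies near any profile, and these distances are descriptions without a test.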

How the data were processed

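RNA was sequenced from 3 Gli3R and 3 control libraries. The authors deposited raw counts per Entrez gene; build mm9, TopHat2 2.0.14, featureCounts, Subread 1.4.6, FastQC and edgeR appear in the submitters' processing notes. The sources used here do not give the annotation, the strand setting or the treatment of multiply mapped reads. The column headers match columns to samples by group and replicate number. Amplified copies count as reads.

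Counts were fitted as deposited in R 4.3.3 with edgeR 4.0.16 (filterByExpr, minimum count 10, 11913 genes; TMM; quasi-likelihood test, two-sided; Benjamini-Hochberg over all genes; threshold 0.05), without a litter term. SEs come from the fold change and its F statistic. Of 24975 rows, 6256 had no count. One count stood for 0.0777 to 0.186 CPM. A count of 0 allows 3 counts. Intervals on reads cover counting error only. Transcript lengths and shared 50-base stretches come from GENCODE M21 (another build; no mm9 coordinates are given). The fits were tested on simulated data.

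A replicate number marks a shared litter in the labels. A fit with litter as a block is therefore the paired alternative. After the mean of each group was subtracted, the Gli3R and control library of a litter had correlations of 0.168, 0.187 and 0.0755. Unmatched pairs ranged between -0.269 and 0.162, so these values alone do not separate the litters. Pairs of libraries differed by more than sampling noise. p-values measure the spread between pools of embryos.

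The members, the gene lists and the alternatives were chosen with earlier results of these data known. Named are the 9 genes, Gli3, Cdh1, Epcam, Fn1, Eomes and Mesp1, genes of each list that passed, up to 3 of each list with the smallest p among those averaging 5 CPM or more, and the 2 nearest profiles. Other named genes were chosen after their values were seen. Alternatives were the litter block, DESeq2's size factors, library size alone, other filters, DESeq2 1.42.0, limma-voom 3.58.1 and leaving out libraries.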

Additional observations from a re-analysis of the deposited data

How the results depend on the processing

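Of the 9 genes, 0 passed under any of the 14 alternative fits, DESeq2 and limma-voom included, and Snai1 stayed below 0 and Snai2, Zeb2 and Vim above 0 in all of them (-0.663 to -0.269, 0.433 to 0.914, 0.164 to 0.556 and 0.12 to 0.363 on the log2 scale). Directions near 0 changed sign, and without a single library Twist1 ran to 0.275, Twist2 to 0.40, Cdh2 to 0.235 and Cdh11 to -0.129. Twist1 was at -0.106 without Gli3R replicate 3 and -0.0556 without control replicate 2, Twist2 at -0.017 without control replicate 1 and -0.0255 without control replicate 3, Zeb1 at -0.0579 without litter 1 and Cdh2 at -0.0437 without control replicate 3. Cdh11 was at 0.0234 with the replicate block (litter), 0.0126 with limma-voom, 0.00493 without Gli3R replicate 1, 0.0109 without Gli3R replicate 2 and 0.245 without control replicate 3. The count of genes called in the whole table was 16, and 27 with the litter block, 108 without the low-count filter, 94 with DESeq2, 10 with limma-voom, 27 without litter 1, and 0 to 18 without a single library (0 without Gli3R replicate 3, where 659 had an unadjusted p under 0.05). Genes of the 9 with groups that did not overlap numbered 1, and 2 with library size alone, 4 without litter 1 and 1 to 4 without a single library. With fewer libraries, groups of any gene overlap less often. The share over all tested genes was not taken for these settings, so the counts are no result about the 9 genes. The causes of these changes were not tested. The difference in the log2 ratio of Cdh2 to Cdh1 was 2.76 to 3.30 without a single library and 2.73 with 2 reads added in place of 0.5; paired by litter its exact sign-flip p was 0.25, the smallest that 3 pairs allow. The litter block changed no call among the 9 genes. Depth limits Snai1, Twist2 and Zeb1 most, with 28 to 92 reads a library.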
